A study of Mus musculus with 12 samples.

Results

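The 35 genes described here copy the genome in S phase: they license origins, build and drive the replication fork, supply deoxynucleotides, or act around entry into S phase. They were taken by name from the 50600 entries of a table of normalized read counts from cultured neural stem cells (NSCs), and all 35 were found and passed the filter on low values. The NSCs came from the dentate gyrus (DG) of 6-week-old wild type C57Bl6J mice, pooled from several animals, and were grown as an adherent monolayer with EGF and FGF2, growth factors that keep them dividing. All wells held 75000 plated cells of passage 4. TFB-TBOA, which inhibits glutamate uptake through the excitatory amino acid transporters (EAATs), was added at 1 µM to some wells, with vehicle in the others. After 15 min glutamate at 100 µM, or its vehicle, followed, and RNA was taken 48 h later. The 4 groups of 3 wells are called Veh-Veh (neither agent), Veh-Glut (glutamate only), TFBTBOA-Veh (inhibitor only) and TFBTBOA-Glut (both). The methods describe a male and a female NSC line, and which line these wells came from is not given in the sources used here. The replicates are wells, so p-values measure the spread between wells and not between mice.

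Before S phase, the origin recognition complex (Orc1 and Orc6 here) together with Cdc6 and Cdt1 loads the Mcm2-7 helicase onto DNA. Mcm10, Cdc45 and the GINS complex (Gins1 to Gins4) turn that helicase on, and DNA polymerases then copy both strands, held in place by the Pcna clamp, which the Rfc1 to Rfc5 loader puts on DNA. Much of this gene set is classically switched on at the border of G1 and S by E2F transcription factors, and dividing DG NSCs are often recognised by replication proteins such as MCM2.

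The promoters of these genes carried the E2F motif far more often than promoters in general. In windows of 300 bases (250 before to 50 after the start site, RefSeq, GRCm38.p6), present for 28 of the 35 genes, the words TTTCCCGC, TTTCGCGC, TTTGCCGC or TTTGGCGC were searched on both strands, with overlapping matches allowed. At least 1 of them stood in 13 of the 28 genes (46.4%) and in 2.6% of the 27025 genes with a window. Licensing genes held most of them, with 7 of 9. The CCAAT box (CCAAT) was in 64.3% of the replication genes and 41.1% of all genes, and the CHR motif (TTTGAA or TTCGAA), an element of mitosis genes, in 21.4% and 21.7%. In a list of 28 mitosis genes, of which 24 had a window, the shares were reversed, with E2F in 4.17% and CHR in 75.0%. A match is a description of the letters and not a measured binding site. A stretch around the E2F word nearest before the start site is shown for 6 genes, which span licensing, polymerase and methylation roles; the capitals mark the E2F words, on the gene's own strand, and a match on the other strand reads as its reverse complement. Mcm6 has further words at -110 and -106 from the start site and Mcm7 at 16, which are not shown.
Mcm6: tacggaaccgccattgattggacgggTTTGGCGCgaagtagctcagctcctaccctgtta
Mcm5: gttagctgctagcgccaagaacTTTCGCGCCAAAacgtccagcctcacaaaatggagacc
Mcm7: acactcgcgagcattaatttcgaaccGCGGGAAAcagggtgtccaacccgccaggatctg
Orc1: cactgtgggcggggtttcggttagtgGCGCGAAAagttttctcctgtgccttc
Pola1: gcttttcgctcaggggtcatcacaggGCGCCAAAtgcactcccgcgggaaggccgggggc
Uhrf1: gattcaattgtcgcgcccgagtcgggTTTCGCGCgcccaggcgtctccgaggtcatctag

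These stretches lie at chr1:128359719-128359778 on the minus strand for Mcm6, chr8:75109334-75109393 on the plus strand for Mcm5 and chr5:138172015-138172074 on the minus strand for Mcm7. Those of Orc1 (chr4:108579401-108579453, plus), Pola1 (chrX:93632260-93632319, minus) and Uhrf1 (chr17:56304102-56304161, plus) follow the same build. In Mcm5 2 words on opposite strands overlap, which gives the longer run of capitals.

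**Figure D1:**
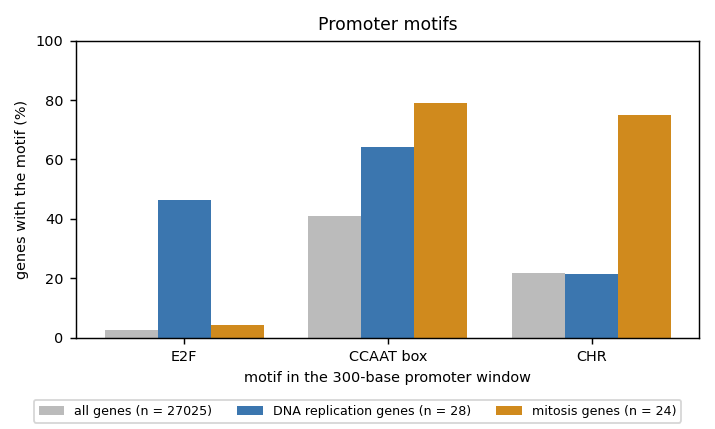
Share of genes with each motif in the 300-base promoter window (vertical axis, percent), for all genes, the DNA replication genes and the mitosis genes, with the number of genes that have a window. E2F words are in 46.4% of the replication genes against 2.6% of all genes, while the CHR motif marks 75.0% of the mitosis genes.

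Depth was known for the 10 libraries where whole reads could be recovered, with totals of 13064545 to 18372691 reads. For TFBTBOA-Veh replicates 2 and 3 it was not known. Markers fixed for NSCs (9 genes, among them Sox2, Nes and Slc1a3) summed to between 104038 and 117017 normalized counts. The oligodendrocyte lineage list (5 genes) reached at most 140.0, the microglia list (5 genes, 1 of them at 0 in every library) 51.6 and the endothelial list (4 genes) 75.7. Dcx, a neuroblast marker, was at 0 in 7 libraries and at most 17.0. Map2, of the same neuroblast and neuron list, read 10556 to 13048 and made up most of the sum of that list. The neuroblast and neuron list summed to 10946 to 13442 and the astrocyte list to 6027 to 7333, and the astrocyte sums of Veh-Glut (6731 to 7333) lay above those of the other 3 groups, while its NSC sums (104038 to 107141) lay below theirs, of which the lowest was 109791. The list members did not all follow these sums. Nes (25002 to 25602) and Vim (17658 to 21073) in Veh-Glut lay below all other wells. Slc1a3 (30533 to 33235) overlapped with Veh-Veh (29049 to 32395), and Egfr (3973 to 4215) lay above it (3652 to 3789). In the astrocyte list Gja1 overlapped between Veh-Glut (3075 to 3361) and Veh-Veh (2953 to 3389). Aldh1l1, which with Gja1 made up most of the astrocyte sum, was 3379 to 3792 in Veh-Glut. It was 2866 to 3210 in Veh-Veh and up to 3422 in TFBTBOA-Glut. S100b overlapped between Veh-Glut (125 to 147) and Veh-Veh (136 to 175). Aqp4 (at most 9.58) and Gfap (at most 88.5) were low in every library. The part of these lists in the results was not tested.

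All 35 genes were well detected, but over a wide range. Per kilobase of exon (GENCODE M21), Rrm2, the small subunit of ribonucleotide reductase, was highest with 4186 ± 51.4 normalized counts per kb (SD, n = 3) in Veh-Veh. Pcna followed with 1855 ± 137, Mcm3 with 1607 ± 105 and Mcm6 with 1406 ± 53.4. Neighbours in this order such as Mcm4 (1223 ± 5.40) and Uhrf1 (1256 ± 26.6) lay close to each other's spread. Orc1 (72.7 ± 12.6) and Fen1 (62.2 ± 3.43) were lowest. The low level of Fen1, the flap endonuclease of Okazaki fragments, is uncertain, because 84.2% of its exonic bases (chr19:10199132-10204169, GRCm38) are shared with Tmem258 and Gm10143 on the opposite strand. Gins2 shares 67.3% with Gse1 in the same way, and 13 of the 35 genes share at least some exonic bases with another gene.

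The main pattern was a lower level of these genes in cells given the transporter inhibitor. Summed over the 35 genes, Veh-Veh held 96574, 96946 and 95558 normalized counts and Veh-Glut 97170, 99658 and 99389. TFBTBOA-Veh held 85387, 87541 and 86495, and TFBTBOA-Glut 83828, 80218 and 87422. The 6 sums with the inhibitor all lay below the 6 without it. As a share of all normalized counts the genes took 0.644% ± 0.00645 (SD, n = 3) in untreated Veh-Veh wells and 0.575% ± 0.0117 in TFBTBOA-Veh. With glutamate the shares were 0.646% ± 0.00286 without and 0.557% ± 0.0212 with the inhibitor. The library with the lowest value was an inhibitor library for 34 of the 35 genes. TFBTBOA-Glut replicate 2 was the lowest for 12 genes and TFBTBOA-Glut replicate 3 for 0. The share of all genes with their lowest value in an inhibitor library was not computed. In these bulk libraries fewer cells in S phase and less replication RNA per cell cannot be told apart.

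**Figure D2:**
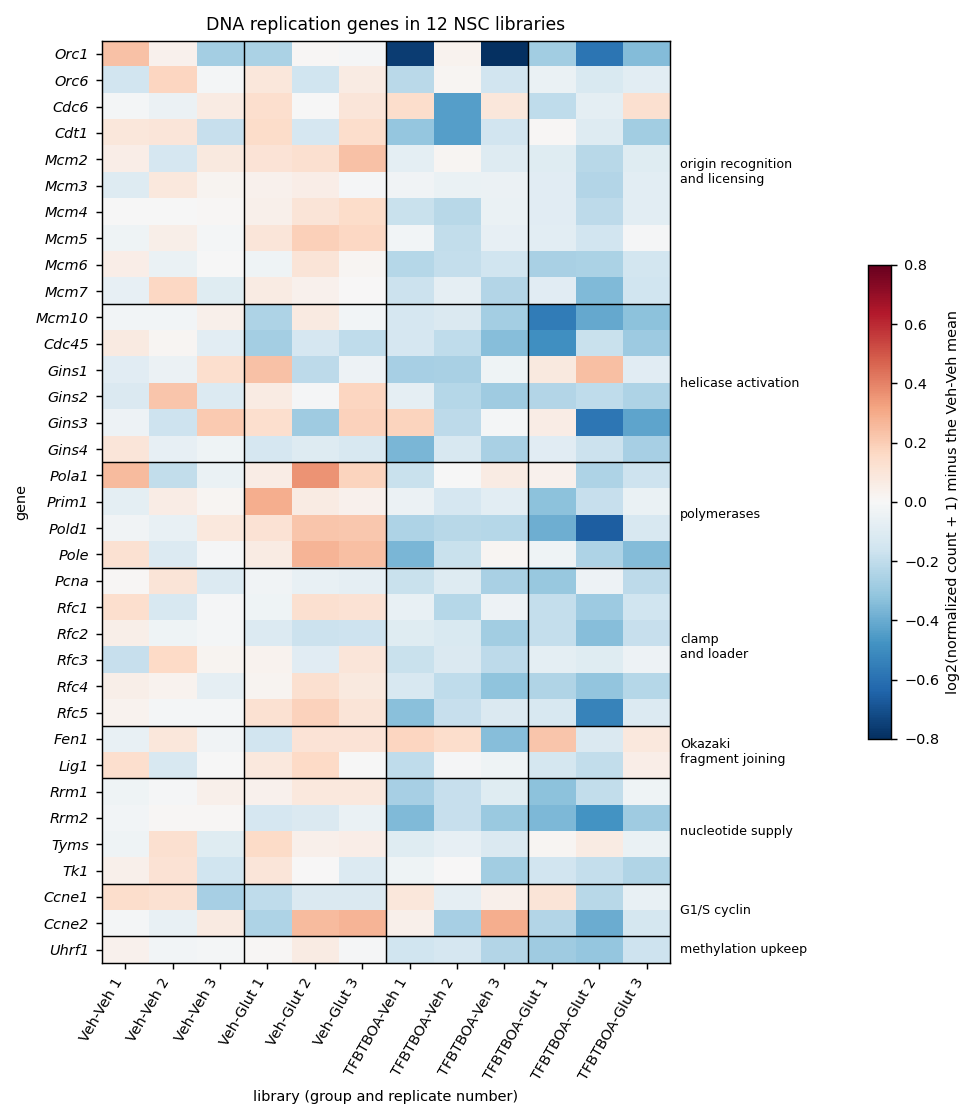
Each cell of the heat map is log2(normalized count + 1) of a gene (rows, by role) in a library (columns, by group) minus the Veh-Veh mean of that gene. The 6 inhibitor columns are mostly blue (lower), most deeply for Orc1, Mcm10, Pold1 and Rrm2, while Fen1, Gins1 and Ccne1 show both colours within the inhibitor groups.

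The comparison of TFBTBOA-Veh with Veh-Veh asks what blocking the transporters did without added glutamate. Here 33 of the 35 replication genes had a negative log2 fold change, with a median of -0.17 against -0.0023 over all 14266 genes tested. A single gene passed the threshold (limma, Benjamini-Hochberg adjusted p under 0.05 over all genes tested) as lower, Rrm2, and none as higher, while 0.105% of all genes were called lower and 0.925% higher. At an unadjusted p under 0.05 there were 13 lower and 0 higher, against 4.72% and 6.73% of all genes. Groups did not overlap in 12 genes that were lower and in 0 that were higher, against 7.74% and 9.03% of all genes.

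Rrm2 (chr12:24708241-24714146, plus strand, GRCm38) makes the rate-limiting subunit of the enzyme that turns ribonucleotides into deoxyribonucleotides. The 3 Veh-Veh wells read 11437, 11700 and 11664 normalized counts, against 9087, 10225 and 9451 in TFBTBOA-Veh. With glutamate added it read 10554, 10718 and 11187 in Veh-Glut and 9023, 8330 and 9506 in TFBTBOA-Glut. Every inhibitor well lay below every well without it. Without glutamate Rrm2 fell by 0.28 on the log2 scale (SE 0.0546, limma adjusted p = 0.0365), and its mean fell by 17.4%. This call was lost when any of the 6 libraries other than TFBTBOA-Veh replicate 2 was left out, with log2 fold changes of -0.29 to -0.24 in those 5 fits.

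The comparison of TFBTBOA-Glut with Veh-Glut asks the same in the presence of glutamate, and shares no library with the comparison above. A negative log2 fold change was found for 32 of the 35 genes, with a median of -0.23 against 0.0095 over all genes. A single gene passed as lower, Pold1, and none as higher, where 0.953% of all genes were called lower and 1.23% higher. At an unadjusted p under 0.05 there were 19 lower and 0 higher, against 9.31% and 9.01% of all genes. Groups did not overlap in 21 genes that were lower and in 0 that were higher, against 12.0% and 11.2% of all genes.

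Pold1 (chr7:44532746-44548849, minus strand, GRCm38) encodes the catalytic subunit of DNA polymerase delta, which copies the lagging strand. Its normalized counts were 3326, 3582 and 3569 in Veh-Glut and 2342, 1943 and 2803 in TFBTBOA-Glut. Without glutamate they were 3012, 2946 and 3256 in Veh-Veh and 2587, 2628 and 2621 in TFBTBOA-Veh. The wells with and without the inhibitor again did not overlap, and TFBTBOA-Glut replicate 2 was the lowest. With glutamate Pold1 fell by 0.58 on the log2 scale (SE 0.119, limma adjusted p = 0.0297), and its mean fell by 32.3%, while without glutamate its log2 fold change was -0.23 (SE 0.0704, adjusted p = 0.192). Without TFBTBOA-Glut replicate 2 the first value was -0.45 and no longer passed, and the call was also lost without TFBTBOA-Glut replicate 1 and without replicate 2 or 3 of Veh-Glut.

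**Figure D3:**
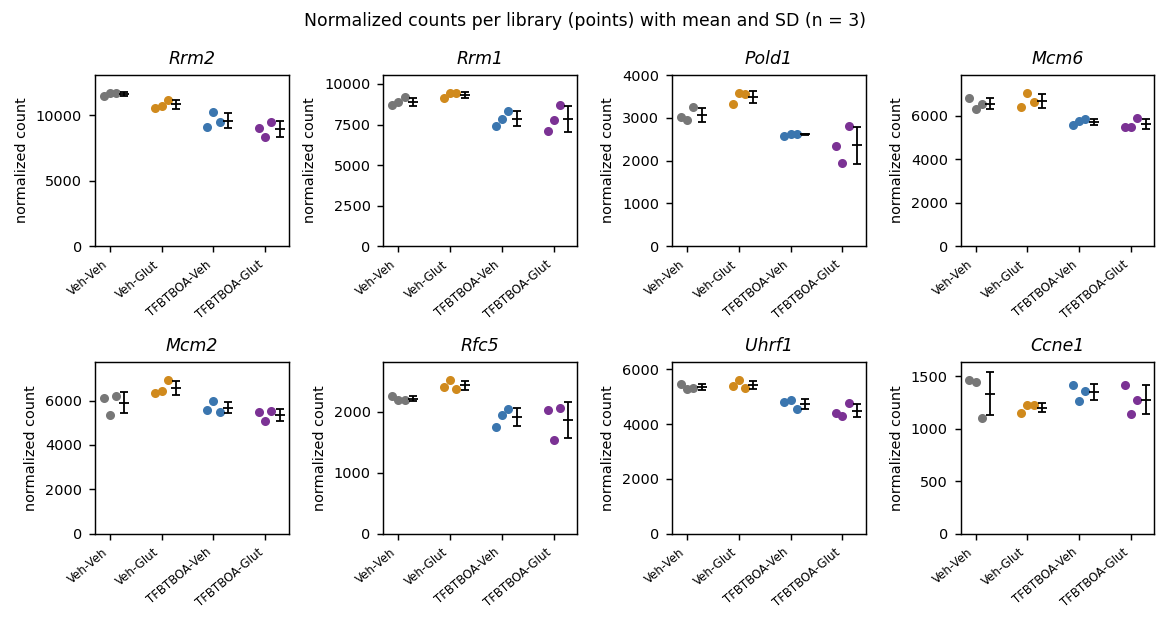
Normalized counts (vertical axes, from 0) of 8 replication genes in each library (points) with the mean and SD of the 3 wells of each group (black). For Rrm2, Rrm1, Pold1, Mcm6, Rfc5 and Uhrf1 every inhibitor well lies below every other well; Mcm2 (5063 to 5965 with the inhibitor, 5370 to 6925 without) and Ccne1 overlap.

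Set side by side, the comparisons with and without glutamate gave the same direction for most genes. A negative log2 fold change in both was found for 31 of the 35 genes (88.6%) and for 29.8% of all genes tested, and a positive one in both for 1, Ccne1, whose value without glutamate was -0.11 when Veh-Veh replicate 3 was left out. Non-overlapping groups in both, each time lower, were found for 10 genes (28.6%), against 2.73% of all genes. In 8 genes all 6 inhibitor wells lay below all 6 wells without it, against 1.73% of the 14266 genes tested. These were Mcm4, Mcm6, Pold1, Rfc4, Rfc5, Rrm1, Rrm2 and Uhrf1. When the inhibitor effect was averaged over both glutamate conditions in a single limma fit of the 12 libraries, an alternative chosen after the data had been seen, 11 of the 35 genes were called lower and 0 higher, where 3.40% of all genes were called lower and 4.12% higher. The 11 were Mcm2, Mcm4, Mcm6, Mcm10, Pold1, Pole, Rfc4, Rfc5, Rrm1, Rrm2 and Uhrf1, with log2 fold changes from -0.41 (Pold1, adjusted p = 0.00275) to -0.17 (Mcm2, adjusted p = 0.0447).

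**Figure D4:**
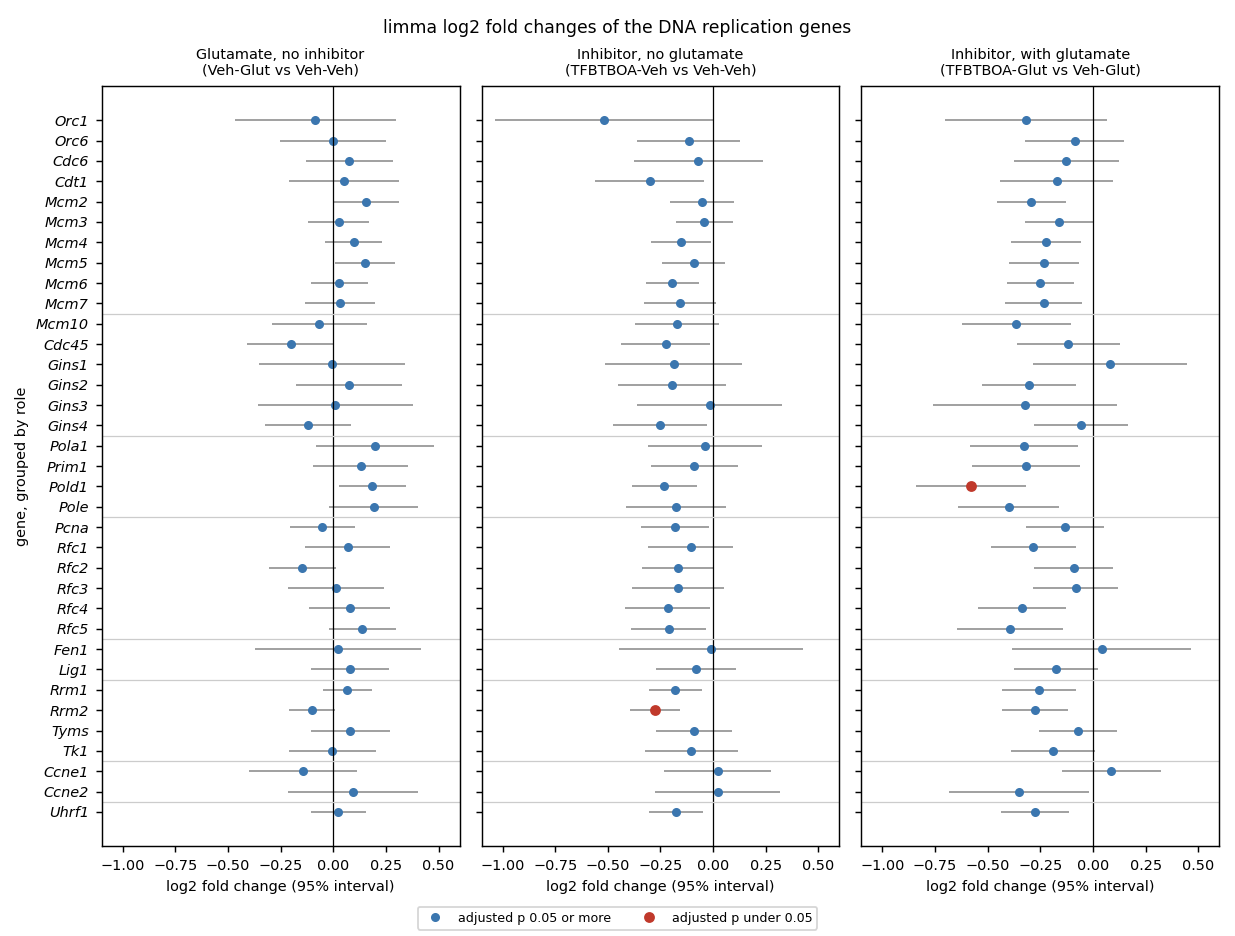
Log2 fold changes (horizontal axes) with 95% intervals from limma for each replication gene, by role, for glutamate without the inhibitor and for the inhibitor without and with glutamate; red points passed the adjusted p threshold of 0.05. Points lie on both sides of 0 in the glutamate panel, whereas 33 and 32 of 35 lie left of 0 in the inhibitor panels, with Rrm2 and Pold1 in red.

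Among the 10 licensing genes, each had a negative log2 fold change in both inhibitor comparisons, with medians of -0.13 without and -0.23 with glutamate. The exception among fits that left out a library was Cdc6, at 0.11 without TFBTBOA-Veh replicate 2. Mcm6, a subunit of the helicase ring, read 6814, 6316 and 6550 in Veh-Veh (normalized counts), 5593, 5741 and 5869 in TFBTBOA-Veh, 6413, 7054 and 6627 in Veh-Glut and 5476, 5506 and 5910 in TFBTBOA-Glut. Its log2 fold changes were -0.19 (SE 0.0572, limma adjusted p = 0.181) and -0.25 (SE 0.0731, adjusted p = 0.101). Neither passed, although the wells with and without the inhibitor did not overlap.

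Mcm2, a further subunit of the ring, separated the groups with glutamate only. The Veh-Veh wells read 6126, 5370 and 6221 normalized counts, and those of TFBTBOA-Veh, at 5588, 5965 and 5481, overlap with them. In Veh-Glut it read 6349, 6434 and 6925, and in TFBTBOA-Glut 5503, 5063 and 5519, without overlap (log2 fold change -0.29, SE 0.0741, limma adjusted p = 0.0682). The difference between the inhibitor effects with and without glutamate was -0.24 (SE 0.0995, limma adjusted p = 0.685).

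Mcm5 read 3989, 4220 and 4026 normalized counts in the Veh-Veh wells, overlapping with 4024, 3565 and 3895 in TFBTBOA-Veh. In Veh-Glut it read 4362, 4656 and 4567 and in TFBTBOA-Glut 3849, 3664 and 4057, so that Veh-Glut lay above all other wells. Cdt1, which brings the helicase to origins and is destroyed once S phase begins, read 998, 1003 and 824 in Veh-Veh, 755, 692 and 844 in TFBTBOA-Veh, 1037, 855 and 1033 in Veh-Glut and 945, 873 and 774 in TFBTBOA-Glut. Its groups overlapped in both inhibitor comparisons, with log2 fold changes of -0.30 (SE 0.119) and -0.17 (SE 0.123). Orc1, the largest subunit of the origin recognition complex, was the least steady of the licensing genes. It read 295, 257 and 207 in Veh-Veh, 148, 256 and 141 in TFBTBOA-Veh, 210, 252 and 248 in Veh-Glut and 207, 166 and 197 in TFBTBOA-Glut. TFBTBOA-Veh replicate 2 stayed at the level of the wells without inhibitor, and the SE of the log2 fold change of -0.52 was 0.237. The remaining licensing genes, Orc6, Cdc6, Mcm3, Mcm4 and Mcm7, had log2 fold changes of -0.16 to -0.04 without and -0.23 to -0.09 with glutamate, none past the threshold.

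Of the genes that activate the helicase, Mcm10 alone had groups without overlap in both inhibitor comparisons. It read 1201, 1199 and 1254 in Veh-Veh (normalized counts), 1108, 1125 and 1010 in TFBTBOA-Veh, 1024, 1278 and 1200 in Veh-Glut and 826, 918 and 970 in TFBTBOA-Glut. The log2 fold changes were -0.17 (SE 0.0912) and -0.36 (SE 0.118, limma adjusted p = 0.133). Cdc45, which joins the helicase when it is activated, read 1320, 1268 and 1183 in Veh-Veh and 1146, 1089 and 993 in TFBTBOA-Veh, without overlap. It read 1039, 1144 and 1093 in Veh-Glut and 894, 1108 and 1028 in TFBTBOA-Glut, which overlap. The 4 GINS genes lay on both sides of 0 with glutamate. Gins2 read 936, 1181 and 939 in Veh-Veh, 962, 865 and 832 in TFBTBOA-Veh, 1059, 1007 and 1141 in Veh-Glut and 861, 880 and 852 in TFBTBOA-Glut, and only the groups with glutamate did not overlap (log2 fold change -0.30, SE 0.103). Gins1 read 287, 297 and 337 in Veh-Veh, 255, 256 and 299 in TFBTBOA-Veh, 360, 265 and 297 in Veh-Glut and 323, 361 and 287 in TFBTBOA-Glut, with overlap in every comparison. Gins3 and Gins4 had log2 fold changes of -0.02 and -0.25 without and -0.32 and -0.06 with glutamate.

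All 4 polymerase genes had lower values in TFBTBOA-Glut than in Veh-Glut with no overlap, with a median log2 fold change of -0.36. Pola1 encodes the catalytic subunit of DNA polymerase alpha, which together with primase starts each new strand. It read 1120, 1381 and 1217 normalized counts in Veh-Glut and 1099, 905 and 956 in TFBTBOA-Glut. Its log2 fold change was -0.33 (SE 0.118, limma adjusted p = 0.170). In Veh-Veh it read 1279, 938 and 1035 and in TFBTBOA-Veh 950, 1072 and 1123, which overlap. Pole, the leading-strand polymerase, and Prim1, the primase, had log2 fold changes of -0.40 (SE 0.109, adjusted p = 0.0821) and -0.32 (SE 0.117, adjusted p = 0.182) with glutamate and -0.18 and -0.09 without. The median of the 4 genes without glutamate was -0.13.

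The clamp gene overlapped between groups, whereas 2 of its 5 loader genes had every inhibitor well below every other. Pcna read 4468, 4773 and 4116 in Veh-Veh (normalized counts), 3935, 4129 and 3713 in TFBTBOA-Veh, 4367, 4265 and 4232 in Veh-Glut and 3595, 4328 and 3842 in TFBTBOA-Glut (log2 fold changes -0.18 and -0.13). Rfc5 spanned 1533 to 2060 in the 6 inhibitor wells and 2194 to 2523 in the 6 others, and Rfc4 1031 to 1181 and 1226 to 1412. With glutamate their log2 fold changes were -0.39 (SE 0.115, limma adjusted p = 0.101) and -0.34 (SE 0.0950, adjusted p = 0.0899). Rfc1, Rfc2 and Rfc3 ranged from -0.17 to -0.11 without and from -0.28 to -0.08 with glutamate.

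The genes that finish Okazaki fragments overlapped between groups in both inhibitor comparisons. Fen1 read 145, 160 and 147 in Veh-Veh (normalized counts), 169, 166 and 119 in TFBTBOA-Veh, 136, 162 and 162 in Veh-Glut and 176, 139 and 159 in TFBTBOA-Glut. The intervals of its log2 fold changes, -0.45 to 0.43 and -0.38 to 0.46, are wide, and most of its exons are shared with other genes as stated above. Lig1, the ligase that seals the fragments, had log2 fold changes of -0.08 (SE 0.0863) and -0.18 (SE 0.0918).

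Within nucleotide supply, both subunits of ribonucleotide reductase separated the wells with and without the inhibitor, and thymidylate synthase (Tyms) did not. Rrm1, the large subunit, spanned 7094 to 8683 normalized counts in the 6 inhibitor wells and 8698 to 9449 in the 6 others, with log2 fold changes of -0.18 (SE 0.0579, limma adjusted p = 0.224) and -0.26 (SE 0.0806, adjusted p = 0.124). Tyms, which makes dTMP from dUMP, read 2050, 2303 and 1970 in Veh-Veh, 1964, 2013 and 1942 in TFBTBOA-Veh, 2337, 2159 and 2179 in Veh-Glut and 2128, 2202 and 2026 in TFBTBOA-Glut. Its groups overlapped, and the log2 fold changes of -0.09 and -0.07 had intervals of -0.27 to 0.09 and -0.26 to 0.12. Tk1, the salvage enzyme for thymidine, had -0.10 (SE 0.101) and -0.19 (SE 0.0911).

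The cyclin E genes, whose products activate Cdk2 at the start of S phase, overlapped between groups in both comparisons. Ccne1 read 1463, 1443 and 1101 in Veh-Veh (normalized counts), 1413, 1263 and 1362 in TFBTBOA-Veh, 1151, 1222 and 1225 in Veh-Glut and 1421, 1138 and 1273 in TFBTBOA-Glut, with log2 fold changes of 0.02 (SE 0.116) and 0.09 (SE 0.108). Ccne2 read 758, 737 and 806 in Veh-Veh, 787, 639 and 936 in TFBTBOA-Veh, 646, 914 and 926 in Veh-Glut and 651, 583 and 695 in TFBTBOA-Glut, with 0.02 (SE 0.136) and -0.35 (SE 0.152). Uhrf1, which guides the maintenance methyltransferase to newly copied DNA, had groups without overlap in both. It read 5480, 5268 and 5303 in Veh-Veh, 4799, 4869 and 4540 in TFBTBOA-Veh, 5386, 5601 and 5320 in Veh-Glut and 4397, 4309 and 4773 in TFBTBOA-Glut. No inhibitor well reached the wells without it, with log2 fold changes of -0.18 (SE 0.0595, limma adjusted p = 0.252) and -0.28 (SE 0.0745, adjusted p = 0.0807).

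Genes with and without an E2F word in the promoter window, such as those of Mcm6 and Uhrf1 shown above, were set side by side as a description. The 13 genes with a word had a median log2 fold change of -0.16 without glutamate and -0.23 with it, and the 15 genes without a word -0.12 and -0.26. All 13 with a word were negative in both comparisons, and so were 14 and 13 of the 15 without. Of the 13, Cdc6, Gins3 and Pola1 changed sign without glutamate in fits that left out 1 library.

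Glutamate on its own, compared as Veh-Glut with Veh-Veh, changed none of the 35 genes past the threshold, and the smallest adjusted p was 0.453 (limma). Over all genes 0.133% were called higher and 0.0280% lower. At an unadjusted p under 0.05 there were 2 genes, both higher, against 5.37% of all genes higher and 4.14% lower. On recovered reads edgeR and DESeq2 also called 0 of the 35 genes, with 3 genes each at an unadjusted p under 0.05. Over all genes edgeR called 0.133% higher and 0.0280% lower, and DESeq2 0.736% and 0.393%. The median log2 fold change was 0.03 against 0.0001 over all genes, with 25 positive and 10 negative; without Veh-Veh replicate 2 it was 0.06. Groups did not overlap in 5 genes that were higher and 4 that were lower, against 7.58% and 6.79% of all genes. The smallest p-values belonged to Pold1 (0.19, SE 0.0728), Mcm5 (0.15, SE 0.0645) and Cdc45 (-0.20, SE 0.0932). All 4 polymerase genes were positive, with a median of 0.19.

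Glutamate in the presence of the inhibitor, compared as TFBTBOA-Glut with TFBTBOA-Veh, also moved none of the 35 genes past the threshold, where 0.00% of all genes passed in either direction (limma). At an unadjusted p under 0.05 there was 1 gene, Mcm10 (log2 fold change -0.26, SE 0.107), where 2.0% of all genes were lower and 1.76% higher. It was followed by Ccne2 (-0.28, SE 0.147) and Gins1 (0.26, SE 0.158). The count tests were not run here, because whole reads were recovered for 1 of the 3 TFBTBOA-Veh libraries only. The median was -0.04, and groups did not overlap in 2 higher and 2 lower genes, against 4.22% and 4.74% of all genes. The test of whether glutamate acted differently with and without the inhibitor (interaction, limma over 12 libraries) called 0 of the 35 genes, where 0.00% of all genes were called higher and 0.0140% lower. Pold1 (-0.35, SE 0.144) and Mcm2 (-0.24, SE 0.0995) had the smallest p, 0.0295 each before and 0.685 after adjustment, and were the 2 genes at an unadjusted p under 0.05, where 3.90% of all genes were lower and 3.04% higher. This comparison and the inhibitor comparisons share libraries.

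A wider list of 72 genes held further replication genes and also regulators such as E2f1, Rb1 and Gmnn. It gave medians closer to 0, -0.11 without and -0.18 with glutamate. Without glutamate 0 of the 72 were called by limma, where 0.105% of all genes were called lower and 0.925% higher. At an unadjusted p under 0.05 there were 16 lower and 0 higher, against 4.72% and 6.73% of all genes. With glutamate 3 were called lower and 0 higher, against 0.953% and 1.23% of all genes. Pold2, the small subunit that partners Pold1, was 2250 ± 124 normalized counts in TFBTBOA-Glut against 3107 ± 150 in Veh-Glut (SD, n = 3; limma log2 fold change -0.47, SE 0.0849, adjusted p = 0.0187). Top2a, the topoisomerase that untangles copied DNA and peaks after S phase, was 6685 ± 201 against 9111 ± 988 (-0.44, SE 0.0854, adjusted p = 0.0237). Orc5, a subunit of the origin recognition complex, was 860 ± 46.1 against 1203 ± 50.1 (-0.48, SE 0.101, adjusted p = 0.0324). In the 2 glutamate comparisons and the interaction none of the 72 was called, with 2, 2 and 3 genes at an unadjusted p under 0.05.

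Mitosis genes, the most similar part of the cell cycle, lay lower with the inhibitor as well. All 28 had a negative log2 fold change in both inhibitor comparisons, against 29.8% of all genes, with medians of -0.22 and -0.25. Without and with glutamate 1 and 3 of the 28 were called lower, against 0.105% and 0.953% of all genes. Groups were without overlap and lower in both comparisons for 13 of 28 (46.4%), against 2.73% of all genes. With the inhibitor effect averaged over both glutamate conditions 19 of the 28 (67.9%) were called lower, against 3.40% of all genes. In that fit 11 of the 35 replication genes and 10 of the 72 genes of the wider list (13.9%) were called lower. The mitosis genes summed to 67936 to 72314 normalized counts in TFBTBOA-Veh and 73038 to 74169 in TFBTBOA-Glut. The sums were 80129 to 84036 in Veh-Veh and 85758 to 89407 in Veh-Glut. With glutamate alone 27 of the 28 were positive, with a median of 0.11. Whether the replication and mitosis genes differ in their response was not tested.

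**Figure D5:**
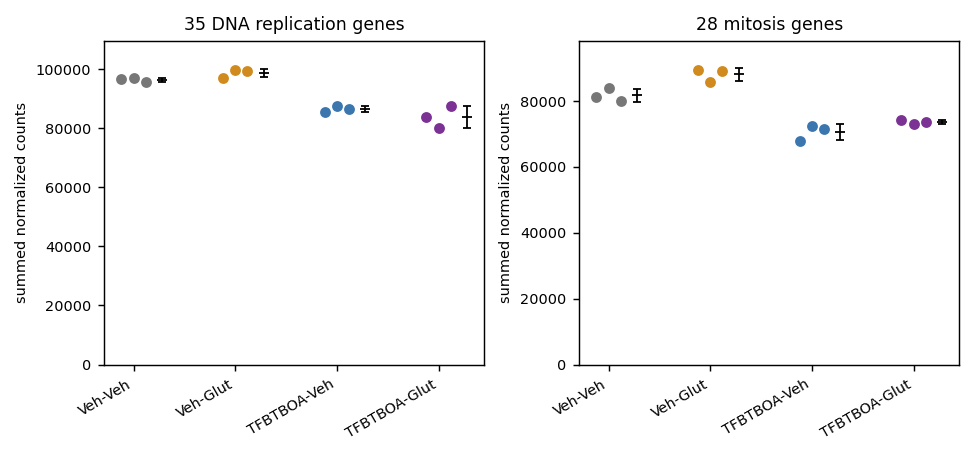
Summed normalized counts (vertical axes, from 0) of the 35 DNA replication genes and the 28 mitosis genes in each library (points), with the mean and SD of 3 wells (black). In both panels the 6 inhibitor wells lie below the 6 others, at 80218 to 87541 against 95558 to 99658 for the replication genes.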

How the data were processed

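Bulk RNA-seq was measured in 12 libraries, 3 wells in each of 4 groups taken from the sample labels. The authors trimmed reads, removed rRNA, mitochondrial and PhiX reads, aligned with HISAT2 (GRCm38p4 in the methods, GRCh38 in the submitters' processing notes) and counted per gene of GENCODE M14 with featureCounts in stranded mode. SMART-Seq HT libraries do not keep the strand, so genes overlapping on opposite strands are uncertain. The deposited values are a signal, gene counts divided by a size factor per library by the authors. Whole reads were recovered in 10 libraries. In all 12 libraries 100% of values lay within 0.05 of a whole number of reads. This measure alone did not set apart TFBTBOA-Veh replicates 2 and 3, for which no total was recovered.

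From these, log2(value + 1) was tested where the mean over 12 libraries was 10 or more (14266 genes), each comparison on its own 6 libraries, with limma 3.58.1 (R 4.3.3, trended, two-sided, Benjamini-Hochberg over all genes, threshold 0.05). The interaction used 12 libraries. Fold changes on this scale understate those of low genes. limma was tested on simulated data. Genes described in every library were those past the threshold, the 3 of smallest p in each pairwise comparison, and a fixed gene or more of each role; Mcm4, Rfc4, Rfc5 and Rrm1 were named after their values were seen. Of the wider list, genes past the threshold were named. The members and lists were chosen with earlier results of these data known. Alternatives were pseudocounts of 0.5 and 5, no filter, a minimum mean of 50, 12 libraries in a single fit, a replicate block, TMM scaling, edgeR 4.0.16 and DESeq2 1.42.0 on recovered reads, and each library left out. The edgeR and DESeq2 fits covered the comparisons without TFBTBOA-Veh. With the inhibitor in the presence of glutamate, edgeR called 1 replication gene and 0.862% of all genes lower, and DESeq2 8 and 3.04%. Gene lengths and positions are from GENCODE M21 (GRCm38), matched by symbol. No gene of the lists was among the 183 entries sharing a symbol.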

Additional observations from a re-analysis of the deposited data

How the results depend on the processing

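The log2 fold changes of Rrm2 without glutamate and of Pold1 with it, and the medians of the 35 genes in both inhibitor comparisons, kept their sign under every alternative run. Signs of genes that were not called did change. This happened for 6 genes in TFBTBOA-Veh against Veh-Veh, 2 in TFBTBOA-Glut against Veh-Glut, 12 in Veh-Glut against Veh-Veh, 15 in TFBTBOA-Glut against TFBTBOA-Veh and 8 in the interaction, mostly when a library was left out, and each had a log2 value of 0.116 or less in size. Without glutamate the ranges over fits that left out a library were -0.18 to 0.11 for Cdc6, -0.11 to 0.088 for Gins3, -0.14 to 0.086 for Pola1, -0.10 to 0.15 for Fen1, -0.11 to 0.093 for Ccne1 and -0.11 to 0.16 for Ccne2. With glutamate they were -0.022 to 0.20 for Gins1 and -0.045 to 0.13 for Fen1. The effect averaged over both glutamate conditions (chosen after seeing the data) was 0.015 for Fen1, -0.16 for Ccne2 and -0.053 for Gins1, each opposite in sign to one of the separate comparisons.

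In TFBTBOA-Veh against Veh-Veh the count of replication genes called lower was 1, where 0.105% of all genes were called lower. It was 0 without the filter (0.0311% of 28902 genes) and 2 with a replicate block (0.561% of all genes). It was 11 with the averaged effect (3.40%), and 0 to 1 with each library left out (0% to 0.0350%). In TFBTBOA-Glut against Veh-Glut the count was also 1 (0.953% of all genes). It was 0 without the filter (0.0484%), 9 in a single fit of 12 libraries (2.46%), 3 with the block (1.61%), 8 with DESeq2 (3.04%), 11 with the averaged effect (3.40%) and 0 to 3 with each library left out. It was 3 without TFBTBOA-Glut replicate 3 (Pold1, Rrm1 and Rrm2), where 1.58% of all genes were called lower. With each library left out this share ran from 0.112% (without Veh-Glut replicate 2, where the count was 0) to 1.58%. The cause of these differences was not tested. The median log2 fold change with glutamate was -0.20 without TFBTBOA-Glut replicate 2 and -0.27 without replicate 3, and that of glutamate alone was 0.03 to 0.06 with each library left out. Deviations of same-numbered libraries correlated weakly, at -0.04 to 0.08 over 18 pairs (median 0.025). Over 36 pairs with different numbers the range was -0.11 to 0.085 (median -0.020). Pairs of replicate 3 libraries were all positive, at 0.057 to 0.084. These values do not settle whether a shared number marks paired wells, so the block is an alternative only. The block added Rrm1 without glutamate and Mcm2 and Rrm2 with it. The genes of fewest counts, Fen1, Gins1, Gins3 and Orc1, had standard errors of 0.149 to 0.237 in TFBTBOA-Veh against Veh-Veh.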
